A study of Mus musculus with 104 samples.

Results

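Junctions joined to a DNA break on chromosome 7 were compared between neural progenitor cells (NPC) and the embryonic stem cells (ESC) they came from, both kept in aphidicolin. The comparison takes the 20 chromosome 7 bait samples treated with aphidicolin, of 104 samples in the series, held in 4 of its 24 tables, 1 for each cell type and line. The assay was high-throughput genome-wide translocation sequencing (HTGTS). One end of a double-strand break made at a known place, the bait, is copied outwards by linear amplification-mediated PCR (LAM-PCR). Sequencing then shows which other break, the prey, that end was joined to. All cells were mouse, of strain C57BL6/129SVE and genotype Xrcc4-/- p53-/-. This held for the NPC, the ESC and the solvent controls alike, so every value below belongs to cells without both genes. NPC were derived in culture from ESC of the same line, line 1 or line 2, in a serum-free N2B27 medium, while ESC were grown with serum. Aphidicolin (APH) was compared with DMSO, and the labels used here give no dose or time. How the bait break was cut is not given there either.

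Aphidicolin inhibits the replicative DNA polymerases and slows replication forks. Under mild replication stress, dividing neural progenitors gather breaks in recurrent clusters, which lie mostly in long neural genes. Xrcc4 is a core factor of classical end joining. Without it broken ends last longer and are joined by alternative pathways, which often use short stretches of bases shared by both ends, called microhomology. Loss of p53 lets cells with unjoined breaks survive.

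NPC gave 8 experiments, 4 per line, with 10087 to 34471 junctions each and 163092 in all. ESC gave 10 countable experiments with 3900 to 19413 junctions each and 132891 in all: 4 of line 2, and 6 of line 1, since all 3718 reads of experiment A and all 3983 of experiment D of ESC line 1 are listed again under experiment C and were counted there once. Beyond 5 Mb of the bait break, NPC kept 53208 junctions (3494 to 11482 per experiment) and ESC 14687 (452 to 2271), so 1 junction weighs more in an ESC experiment than in an NPC one. The reads came from 15 sequencing runs, going by the read names. In 0 of them were both cell types read, so run and cell type cannot be told apart. All 8 NPC experiments and 5 of the 6 counted experiments of ESC line 1 were read on the same instrument, and experiment H of ESC line 1 and all of ESC line 2 on another. Nothing in the labels says that the experiments were separate cultures. Each p-value below therefore rests on the spread between experiments, which may be technical. Molecules carry no identifiers, so counts of reads are not exact counts of joining events.

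The bait break, the most frequent start of the bait alignments, lay at position 80451956 of chromosome 7 in mm9. Its sequence is shown because narrow prey sites described below resemble it. It was read from the deposited bait reads, and the capitals mark 20 bases followed by GGG, a match to the NGG motif (with N for any base) that a Cas9 nuclease needs beside its target.

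bait, chr7:80451922-80451974, plus strand: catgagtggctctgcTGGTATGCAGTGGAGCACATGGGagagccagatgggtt

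Of the candidate stretches with NGG near the break, this one was chosen because 27233 bait alignments started at the base after its predicted cut, more than for any other candidate, and not from the labels.

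In NPC a larger share of junctions lay away from the break than in ESC. Within 10 kb of the break, where most joins of the bait end to its own surroundings fall, the NPC experiments held 43.8% at the lowest, 51.2% at the median and 63.2% at the highest. The ESC experiments held 80.2%, 83.4% and 87.8%. The 2 cell types did not overlap, and the mean over both lines of NPC minus ESC was -31.6 percentage points (exact permutation test of cell type within line, two-sided, 14700 arrangements, p = 6.8e-05, the smallest they can give, adjusted over 4 shares 6.8e-05).

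The other places took up what the break's surroundings lost. From 10 kb to 5 Mb the NPC experiments held 15.3% ± 3.1 (SD, n = 8) and the ESC experiments 5.64% ± 1.69 (SD, n = 10). On chromosome 7 beyond 5 Mb the shares were 7.84% ± 1.19 (SD, n = 8) and 2.40% ± 0.62 (SD, n = 10). On other chromosomes they were 25.1% ± 1.96 (SD, n = 8) and 8.23% ± 1.51 (SD, n = 10). In each of the 3 places every NPC experiment stood above every ESC experiment, by 9.50, 5.37 and 16.7 percentage points over the lines (exact permutation tests, adjusted p = 6.8e-05 each). These are shares of 1 total, so the fall near the break and the rises elsewhere are not separate findings. Within ESC, the shares within 10 kb and on chromosome 7 beyond 5 Mb also split by instrument. On the instrument shared with NPC they were 84.6% to 87.8% and 1.63% to 2.08%. On the other, which read all of ESC line 2, they were 80.2% to 82.2% and 2.42% to 3.36%.

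**Figure D1:**
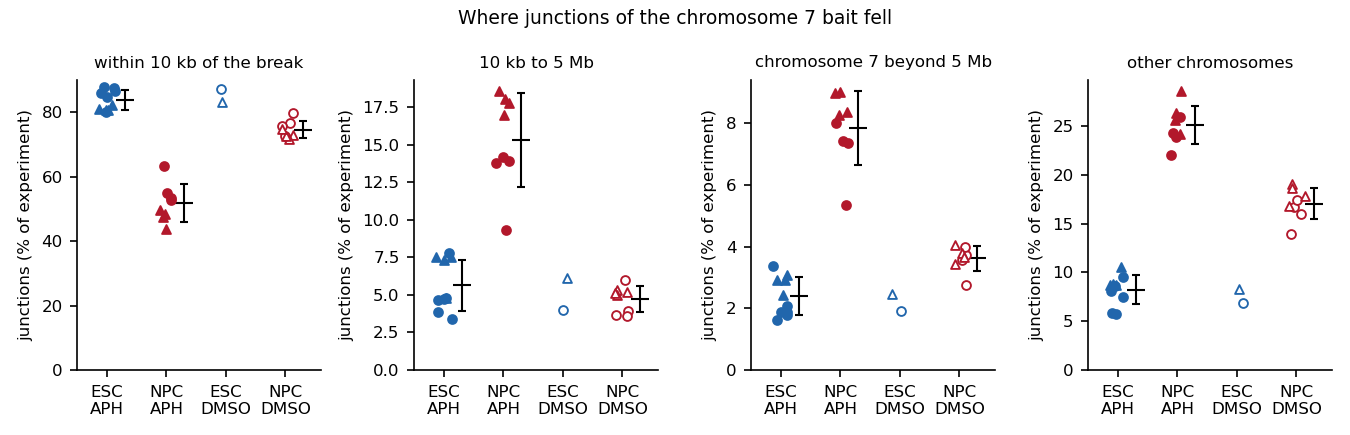
Percent of an experiment's junctions in each of 4 places (vertical axes) by cell type and treatment; circles are line 1, triangles line 2, filled symbols APH, open symbols DMSO. Black bars are the mean ± SD over experiments, left out for ESC with DMSO, which is drawn as 1 pool per line. Under APH the NPC experiments hold 43.8% to 63.2% within 10 kb of the break and the ESC experiments 80.2% to 87.8%.

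When junctions within 10 kb were left out of the total, the differences changed. The share from 10 kb to 5 Mb was then 3.19 points lower in NPC (npc minus esc -3.19, exact permutation test, adjusted p = 0.264), and the share on other chromosomes 1.65 points higher (exact permutation test, adjusted p = 0.535). Only the share on chromosome 7 beyond 5 Mb still passed the test, at 1.54 points higher (exact permutation test, adjusted p = 0.034). So the contrast by place lay mainly between the first 10 kb and all the rest.

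The DMSO controls show the same order with a smaller gap. With DMSO the 8 NPC samples held 71.7% to 79.7% within 10 kb, and the 2 ESC pools 83.1% and 87.2%. For other chromosomes the NPC samples held 13.9% to 19.02% and the ESC pools 6.85% and 8.34%. From 10 kb to 5 Mb, by contrast, NPC (3.63% to 6.02%) and ESC (4.03% and 6.14%) overlapped with DMSO. The ESC DMSO tables are given as pools because their letters do not match the labels, and whether the NPC and ESC difference changed with APH was not tested here.

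Along chromosome 7, NPC junctions leaned to the telomere side of the break. Of chromosome 7 junctions beyond 5 Mb, the share towards the centromere was 24.5% to 30.3% in the NPC experiments (median 27.0%). In the ESC experiments it was 42.6% to 56.2% (median 47.0%). No NPC experiment reached the lowest ESC experiment, and the difference of -21.8 points passed the exact permutation test (adjusted p = 0.00014). With the chromosome 7 bins named below left out it was still -17.0 points (exact permutation test, adjusted p = 0.00014), an alternative chosen after seeing the data. With DMSO the NPC samples held 30.8% to 36.6% and the ESC pools 45.5% and 50.7%.

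The lean was spread over several distances. From 5 to 10 Mb on the telomere side, NPC experiments held 9.12% to 12.3% of these junctions and ESC experiments 4.10% to 7.84%. From 10 to 20 Mb there, NPC experiments held 15.1% to 17.3% and ESC experiments 6.25% to 11.1%. From 20 to 40 Mb they held 25.3% to 29.4% and 15.0% to 22.7%. None of these 3 classes overlapped between the cell types. Beyond 40 Mb on that side the medians were close, 18.4% and 18.4%, and the groups overlapped. Towards the centromere, NPC medians stood below ESC medians from 5 to 10 Mb (5.33% and 10.2%), from 10 to 20 Mb (6.45% and 12.8%), from 20 to 40 Mb (5.54% and 10.95%) and beyond 40 Mb (9.67% and 15.0%). Of these 4 classes only that from 20 to 40 Mb had no overlap. These distance classes were described, not tested.

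**Figure D2:**
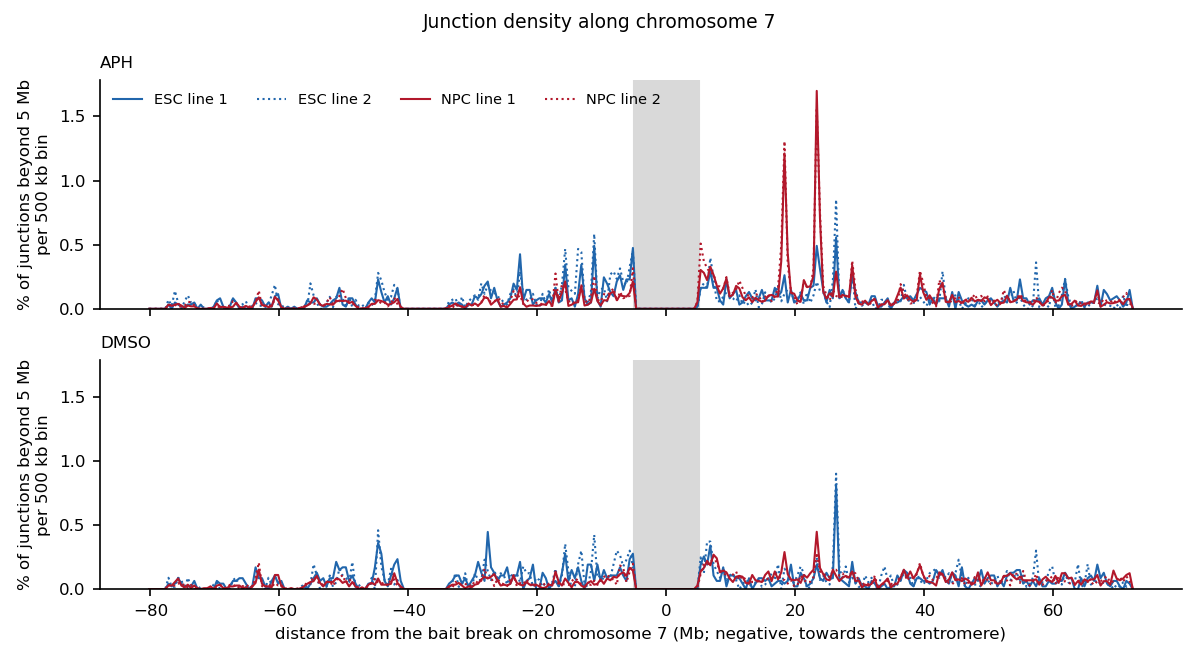
Percent of a pool's junctions beyond 5 Mb of the break in each 500 kb bin (vertical axis) against the distance of the bin from the bait break (horizontal axis, Mb), with APH above and DMSO below; the grey band is the 5 Mb on each side left out. With APH the 2 NPC lines show peaks near 18 and 23 Mb on the telomere side that reach 1.31% and 1.70%, and the ESC lines a peak near 26 Mb that is also there with DMSO.

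The share of prey on the plus strand of chromosome 7 differed little, 44.7% ± 0.81 (SD, n = 8) in NPC and 48.4% ± 4.45 (SD, n = 10) in ESC. The difference of -3.73 points gave p = 0.031 (exact permutation test, adjusted p = 0.031), but the experiments overlapped. With line 1 alone the adjusted p was 0.243, and it was 0.0546 to 0.0697 when experiment B, G or H of ESC line 1 or A or D of NPC line 1 was left out, so the call rests on single experiments.

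To find the places that differed, junctions beyond 5 Mb were counted in 500 kb bins. Counts were compared with the edgeR quasi-likelihood test, with line as a block. The library was the junctions beyond 5 Mb, adjusted by scaling factors (TMM) taken from the bins kept. A fold change is therefore relative to those bins as well as to the distant junctions. The filter, a minimum count of 5 by cell type, kept 19 bins, 18 of them on chromosome 7. Of these, 8 were higher in NPC (42.1% of those tested) and 6 lower (31.6%) at an adjusted p of 0.05. As a part of the pools' distant junctions, all 8 were also higher and all 6 lower in both lines. Without TMM the counts were again 8 and 6. The median log2 fold change of the 19 was 0.34. All 8 higher bins lay on the telomere side of chromosome 7, where 13 bins were tested. Of the 6 lower bins, 4 were on its centromere side, where 5 were tested.

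These directions are relative to the distant junctions. Scaled to all junctions of an experiment, which are mostly near the break and more so in ESC, 14 of the 19 bins were higher in NPC and 0 lower (median log2 fold change 1.98; edgeR; 14 at unadjusted p under 0.05). The same count of 14 and 0 came with scaling factors (TMM) taken from all bins. So the lower calls below mean a smaller part of the distant junctions, and on the scale of all junctions none of them was lower by the test. Both scalings were chosen after seeing the data.

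The highest pair of peaks lay in stretches where a neural gene, Dlg2 or Tenm4, was the longest. No annotation of mm9 was at hand. Gene starts were placed by matching RefSeq promoter sequences (GRCm38.p6) to prey reads. A bin is described by the placed starts around it and the longest gene between them, which need not reach the bin. Exons and introns could not be read. The stretch between the placed starts of Me3 and 4632427E13Rik on chromosome 7 holds Dlg2 as its longest gene, which codes for a scaffold protein of the postsynaptic density.

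Within it, the bin chr7:98500001-99000000 held 665 NPC junctions and 26 ESC junctions. The NPC experiments had 1.02% at the lowest, 1.27% at the median and 1.49% at the highest of their distant junctions there. The ESC experiments had 0%, 0.08% and 0.46%, so all 8 NPC experiments stood above all 10 ESC experiments. edgeR put the log2 fold change at 2.75 ± 0.24 (SE, adjusted p = 5.8e-15). With DMSO the same bin held 0.29% and 0.07% of distant junctions in the NPC pools of line 1 and line 2 and 0.04% and 0.16% in the ESC pools.

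The adjoining bin chr7:99000001-99500000 rose by 1.78 ± 0.39 (SE, log2; edgeR, adjusted p = 0.0001), with NPC experiments at 0.26% to 0.52% and ESC experiments at 0% to 0.27%, which overlap. Over the whole 3.11 Mb between the 2 placed starts, the NPC experiments held 1.91% to 2.71% and the ESC experiments 0.36% to 1.06%. That is 1287 NPC and 114 ESC junctions, and the cell types did not overlap.

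The other peak lay at Tenm4, which codes for a teneurin, a cell-surface adhesion protein of neurons and oligodendrocyte precursors. The start of Tenm4 was placed inside chr7:103000001-103500000. The next bin, chr7:103500001-104000000, lay between that start, 140 kb before it, and the start of Nars2, which codes for the mitochondrial asparaginyl-tRNA synthetase, 100 kb after it. It held 875 NPC and 48 ESC junctions. NPC experiments had 1.25%, 1.64% and 1.97% at the lowest, median and highest, and ESC experiments 0%, 0.27% and 0.74%. The groups did not overlap, and edgeR put the log2 fold change at 2.26 ± 0.19 (SE, adjusted p = 5.8e-15).

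Its neighbours moved the same way by less. The bin chr7:104000001-104500000, which holds the placed starts of Nars2 and Usp35, a deubiquitinase, had a log2 fold change of 1.73 (SE 0.29, adjusted p = 2e-06 by edgeR). The bin with the Tenm4 start had 0.95 ± 0.37 (SE; edgeR, adjusted p = 0.019), and lost the call without experiment B or C of ESC line 2 (edgeR, adjusted p = 0.0735 and 0.0604). Between the starts of 4632427E13Rik and Nars2, 4.21 Mb, NPC experiments held 2.37% to 3.68% and ESC experiments 0.22% to 1.84%. In both peaks no single 1 kb window held more than 1.1% of the bin's junctions, so the junctions were dispersed.

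The remaining higher bins were nearer the break or far out. The bins chr7:85500001-86000000, with the start of Det1, and chr7:86000001-86500000, with the start of Mfge8, which codes for a secreted bridging protein of phagocytosis, adjoin the zone left out around the break. Their log2 fold changes were 1.21 ± 0.37 and 0.82 ± 0.36 (SE; edgeR, adjusted p = 0.0037 and 0.034). The bin chr7:119500001-120000000, between the starts of Gm39068 and Cyp2r1 with Galnt18 the longest of 24 genes, had 1.12 ± 0.41 (SE, edgeR, adjusted p = 0.012). In all 3 the cell types overlapped, and the Mfge8 bin lost its call without experiment F of ESC line 1 or C of ESC line 2 (edgeR, adjusted p = 0.0544 and 0.0633). Galnt18 belongs to a family that starts mucin-type sugar chains.

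**Figure D3:**
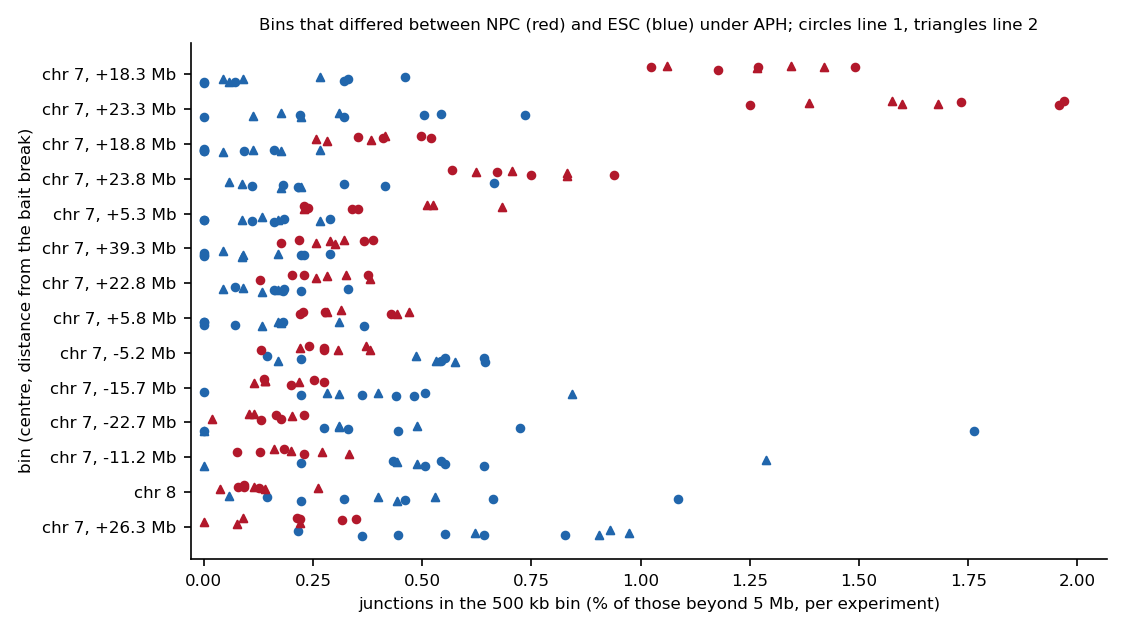
Percent of an experiment's distant junctions (horizontal axis) in each of the 14 bins that passed the test, NPC in red and ESC in blue, circles for line 1 and triangles for line 2; bins are named by chromosome and the distance of their centre from the bait break. In the bins at +18.3 and +23.3 Mb every NPC experiment lies to the right of every ESC experiment, and in the other 12 the cell types overlap.

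Of the 6 lower bins, 1 was on another chromosome. It was chr8:117000001-117500000, where Wwox, a gene of a known common fragile site that codes for an oxidoreductase, was the longest between the placed starts. NPC experiments held 0.04%, 0.10% and 0.26% there, and ESC experiments 0.06%, 0.42% and 1.08%. edgeR put the log2 fold change at -1.79 ± 0.34 (SE, adjusted p = 1e-05), from 60 NPC and 59 ESC junctions. With line 1 alone, scaled by TMM factors from the bins of that fit, it was -1.07 and did not pass (edgeR, adjusted p = 0.178). As a part of distant junctions, the line 1 pools held 0.10% in NPC and 0.44% in ESC, and the line 2 pools 0.14% and 0.37%. With DMSO the lines went opposite ways. The pools of line 1 and line 2 held 0.08% and 0.09% in NPC (12 and 19 junctions) and 0.02% and 0.27% in ESC (1 and 15 junctions).

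On the centromere side of chromosome 7, 4 bins were lower. They were chr7:57500001-58000000 (Nell1 the longest gene, a secreted protein of bone formation; log2 fold change -1.35), chr7:64500001-65000000 (Gabrg3, a subunit of the GABA-A receptor; -1.11), chr7:69000001-69500000 (Snrpn, an imprinted splicing gene; -1.43) and chr7:75000001-75500000 (Igf1r, the receptor of insulin-like growth factor 1; -0.79). Between the placed starts around them lay 11, 7, 11 and 4 genes, in that order, so the bins need not lie in the genes named. Their edgeR adjusted p ran from 0.00011 to 0.01. In each of the 4 the cell types overlapped. The call at Igf1r was lost when experiment B or D of NPC line 1, or any of the 4 of NPC line 2, was left out (edgeR, adjusted p = 0.0529 to 0.134). Each of the 4 turned positive when scaled to all junctions, with log2 fold changes of 0.19 to 0.82. With line 1 alone none of the 4 passed the test. The log2 fold changes were -0.29 at Nell1, 0.49 at Gabrg3, -0.54 at Snrpn and 0.081 at Igf1r (edgeR, adjusted p = 0.42 to 0.861). In that fit 7 of 16 bins were higher and 0 lower, with 7 at unadjusted p under 0.05. Its TMM factors came from these 16 bins alone. As a part of distant junctions, the line 1 pools were lower in NPC in all 4. In the same order NPC held 0.17%, 0.21%, 0.16% and 0.21%, and ESC 0.43%, 0.34%, 0.49% and 0.48%.

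The last lower bin was chr7:106500001-107000000. Uvrag, an autophagy gene, was the longest of 27 genes between the placed starts around it, and the start of Slco2b1, an organic anion transporter, lay inside. This bin differed between the lines. In line 1 the 4 NPC experiments held 0.21% to 0.35% and the 6 ESC experiments 0.22% to 0.83%. In line 2 the 4 NPC experiments held 0% to 0.22% and the 4 ESC experiments 0.62% to 0.97%. Over both lines edgeR gave -1.86 ± 0.35 (SE, log2, adjusted p = 1e-05), and the line by cell type term was -2.63 ± 0.54 (SE, edgeR, adjusted p = 3.9e-05). Line 1 alone gave 0.18 (edgeR, adjusted p = 0.732), with TMM factors from the bins of that fit. As a part of distant junctions, the line 1 pools held 0.29% in NPC and 0.56% in ESC. Instrument and line overlap here: all ESC of line 2 were read on another instrument than the NPC. A single 1 kb window held 15% of its junctions. With DMSO, the ESC pools of line 1 and line 2 held 0.81% and 0.90% of distant junctions (38 and 51 junctions). The NPC pools held 0.10% and 0.15% (15 and 32).

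The filter asks for counts that few bins off chromosome 7 reach, so bins with at least 20 junctions over all experiments were also fitted, with total distant junctions as the library. This fit was chosen after seeing the data. It tested 682 bins, 216 on chromosome 7. Of these 73 were higher in NPC (10.7%) and 46 lower (6.74%), with a median log2 fold change of 0.12. With TMM scaling the same bins gave 199 higher and 11 lower (median 0.89), with all junctions as the library 418 and 1 (median 1.55), and with DESeq2 44 and 17.

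The 2 sides of chromosome 7 differed in these calls. Of 130 bins tested on the telomere side, 15 were higher and 2 lower. Of 86 on the centromere side, 1 was higher and 22 lower. Over all 682 bins 10.7% were higher and 6.74% lower. Higher calls were thus about as frequent on the telomere side as over all bins, and scarcer on the centromere side. Lower calls were more frequent than over all bins on the centromere side and scarcer on the telomere side. Of the 2 lower bins on the telomere side, 1 held 39 NPC and 35 ESC junctions around the window chr7:137735001-137736000. That window held 22 of its 24 junctions in ESC line 2, and 119 with the other baits. The cell types did not overlap in 14 of the 73 higher bins and in 1 of the 46 lower ones, chr7:35500001-36000000, where the NPC experiments held 0.05% to 0.10% and the ESC experiments 0.13% to 0.55%. The share without overlap over all tested bins is not given here. Overlap also depends on depth, which was as low as 452 distant junctions in an ESC experiment, so these counts are a description only.

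Off chromosome 7, 57 of 466 tested bins were higher (12.2%) and 22 lower (4.72%). The bins described here were picked among them after their values were seen, and whether they share a kind of gene was not tested. The bin chr5:19000001-19500000, with Magi2, a synaptic scaffold, the longest gene between its placed starts, held 82 NPC junctions and 0 ESC junctions. Every NPC experiment had junctions there (0.06% to 0.19%). A floor of 3 counts over all ESC experiments puts the level at least 7.54-fold higher in NPC. The edgeR test, which is of any difference and not of this bound, gave an adjusted p of 5.4e-06. In 13 of the 73 higher bins ESC had 0 junctions, and their bounds ran from at least 1.93-fold to at least 7.54-fold. These 13 passed the filter through NPC alone and could only come out higher in NPC. Their calls and bounds are therefore descriptions.

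In further higher bins ESC had a few junctions, and these bins too passed the filter through their NPC counts. For chr6:77000001-77500000 the longest gene was Ctnna2, the neural alpha-catenin, with 101 NPC and 2 ESC junctions (log2 fold change 3.41, SE 0.69, adjusted p = 5.4e-05 by edgeR). For chr14:39500001-40000000 it was Nrg3, a neuregulin that binds ErbB4, with 87 and 2 junctions (3.29 ± 0.70 SE, adjusted p = 0.00014 by edgeR). For chr8:16500001-17000000 it was Csmd1, a complement regulator of the brain, with 63 and 1 junctions (3.69 ± 0.82 SE, adjusted p = 0.00028 by edgeR).

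The splicing factor gene Rbfox1 was the longest gene around chr16:6500001-7000000, with 83 NPC and 3 ESC junctions (2.81 ± 0.65 SE, adjusted p = 0.00052 by edgeR). The protocadherin gene Pcdh9 was the longest around chr14:93500001-94000000, with 59 and 1 (3.54 ± 0.84 SE, adjusted p = 0.0007 by edgeR). In these 5 bins the largest 1 kb window held 3% of the junctions, and at least 1 ESC experiment reached into the NPC range.

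In 16 of the 22 lower bins off chromosome 7, a single 1 kb window held 20% or more of the junctions. This held for 7 of the 57 higher bins there and for 103 of all 466 tested (22.1%). The extreme was chr3:46000001-46500000, where 94% of the junctions lay in 1 window; it held 10 NPC junctions, all in line 1, and 38 ESC junctions (log2 fold change -3.67, SE 0.49, adjusted p = 1.5e-11 by edgeR). A broad lower bin was chr3:55500001-56000000, with Nbea, a gene of vesicle trafficking at synapses, the longest gene, and 16 NPC and 21 ESC junctions (-2.15 ± 0.53 SE, adjusted p = 0.0012 by edgeR). The lower bin that holds the chromosome 12 bait's break had 12 NPC and 26 ESC junctions. Within 10 kb of that break lay 23 in ESC line 2, 0 in ESC line 1, and 0 and 1 in the NPC lines. The lower bin around the window chr5:137458001-137459000 had 11 NPC and 23 ESC junctions. In that window lay 1 and 22, with 19 of the ESC ones in line 2, and 133 with the other baits. What lies behind these 2 calls was not tested.

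A list of 33 loci named for this series, chosen with results of these data known, was read in the same fit. For 11 of them the stretch between the nearest placed starts was at most 5 Mb and the locus its longest gene. These 11 hold 33 tested bins, of which 14 were higher (8 loci) and 1 lower (Wwox). Over all 682 bins 10.7% were higher and 6.74% lower. The median log2 fold change was 1.02 for the 33 bins and 0.12 over all 682 bins. Since the list was chosen with results known, these values describe it and do not test it. The higher bin at Npas3 (31 NPC and 0 ESC junctions) and 1 at Prkg1 (21 and 0) passed the filter through NPC alone. In the higher bin at Ptprt, 77 of 155 NPC junctions lay in a window that resembles the bait, described below. The cell types did not overlap at Dlg2 and Tenm4. At Rbfox1 the NPC experiments held 0.35% to 0.46% and the ESC experiments 0% to 0.36%, and at Nrg3 0.28% to 0.40% and 0% to 0.36%, so both overlapped. The stretch of Auts2, a regulator of neural gene expression, held 0.34% to 0.64% in NPC and 0.11% to 0.90% in ESC, and neither of its 2 tested bins was called. At Hdac9, a histone deacetylase, the only tested bin was not called.

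Whether the NPC and ESC difference was particular to the chromosome 7 bait was tested with the chromosome 12 and 15 baits as pools. Among 1579 bins, 0 passed (0.0%; edgeR interaction, 58 at unadjusted p under 0.05; no other tool was run). With lettered experiments in place of pools, 1 of 176 bins passed, chrX:166000001-166500000, with a log2 difference of 1.85 ± 0.46 (SE; edgeR, adjusted p = 0.018). With the lettered experiments of line 1 alone, an alternative chosen after seeing the data, 4 of 106 passed, that bin among them. The main test rests on 12 pools, so a count of 0 does not show that the baits gave the same difference.

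The joins themselves differed in form. A junction is read as microhomology where bait and prey alignments share bases, as blunt where they meet, and as an insertion where bases of neither lie between. Among distant junctions, 75.1% at the lowest, 77.0% at the median and 77.8% at the highest had microhomology in the NPC experiments. In the ESC experiments these were 47.5%, 63.5% and 72.3%. The groups did not overlap, and NPC was 13.7 points higher (exact permutation test, adjusted p = 0.00041).

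Inserted bases were the counterpart. They were found in 15.0% to 18.3% of NPC junctions and in 16.8% to 45.7% of ESC junctions, a difference of -11.9 points (exact permutation test, adjusted p = 0.00041), with an overlap. Blunt junctions made 7.07% ± 0.90 (SD, n = 8) in NPC and 9.10% ± 1.61 (SD, n = 10) in ESC, -1.81 points (exact permutation test, adjusted p = 0.0021), also with an overlap. Experiment A of ESC line 2 stood apart in this, with 45.7% insertions. Without it the differences were 11.7 points for microhomology and -9.74 for insertions (exact permutation tests, adjusted p = 0.00027 each). In ESC the blunt share split by instrument. It was 9.19% to 11.4% on the instrument shared with NPC and 6.81% to 8.83% on the other, where NPC held 6.09% to 8.97%.

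Where there was microhomology it was shorter in NPC. Its mean length was 3.13 to 3.25 bases in the NPC experiments and 3.27 to 4.29 in the ESC experiments, which did not overlap (difference -0.52 bases, exact permutation test, adjusted p = 0.00054). Averaged over all junctions, those without microhomology counted as 0, the difference was 0.11 bases the other way and did not pass (exact permutation test, adjusted p = 0.357), an alternative chosen after seeing the data. By length, joins with 2 shared bases made up 21.7% ± 1.18 (SD, n = 8) in NPC and 15.0% ± 2.06 (SD, n = 10) in ESC. Joins with 3 made 19.02% ± 0.32 and 13.7% ± 2.06. Joins with 7 or more made 4.50% ± 0.45 and 7.83% ± 3.15, and insertions of 10 or more bases 4.27% ± 0.45 and 10.2% ± 6.52.

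**Figure D4:**
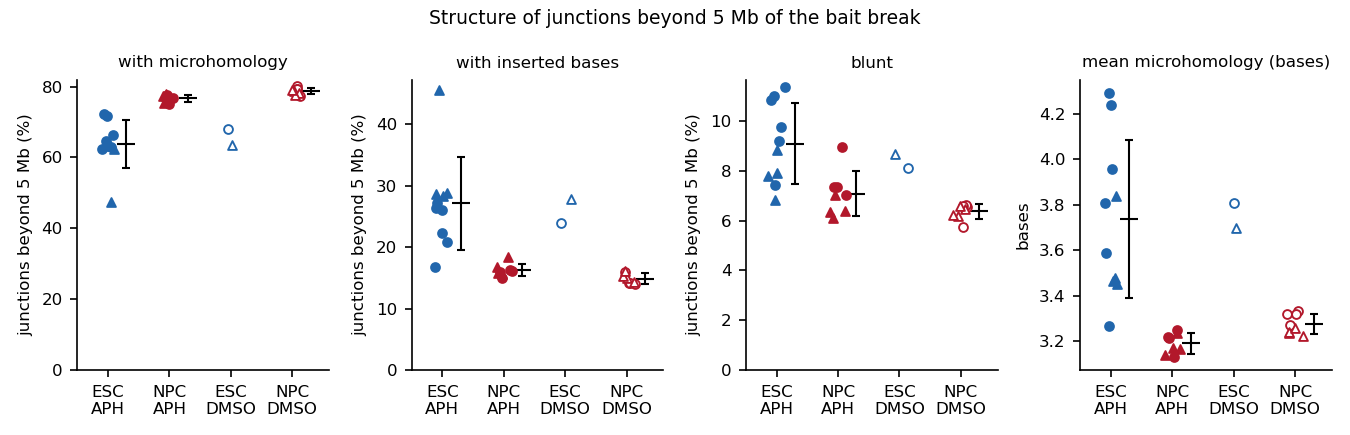
Share of distant junctions with microhomology, with inserted bases or blunt (vertical axes, percent) and the mean length of microhomology where present (bases, axis not from 0), by cell type and treatment; circles are line 1, triangles line 2, filled APH, open DMSO, bars the mean ± SD over experiments. Microhomology stands at 75.1% to 77.8% in the NPC experiments and 47.5% to 72.3% in the ESC experiments with APH.

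The same order stood with DMSO, with 77.4% to 80.2% microhomology in NPC samples and 63.5% and 68.0% in ESC pools. Within 10 kb of the break, where the bins and peaks play no part, microhomology made 70.1% to 74.0% in NPC and 55.0% to 69.5% in ESC. The length of bait sequence read also moved with cell type: its median was 71 to 77 bases in NPC experiments and 83 to 86 in ESC experiments with APH, and 74 to 81 and 84 to 85 with DMSO. Its part in the difference of form was not tested.

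A few places gathered many junctions in 1 kb. Of 34 windows with at least 20 distant junctions over both cell types, 5 held a match to the 20 bases at the bait break followed by NGG. A match allowed at most 4 mismatches, or at most 2 with 1 of the 20 bases left out, on either strand within 121 bases around the window's median junction. Another 19 held at least 2 copies in a row of GCCTCT or of its reverse complement, 9 showed neither in the bases read, and for 1 no bases were read. In the 28 other windows with any of these bases read, the best match without a left-out base had 10 mismatches or more; 11 of the 28 had only 53 to 115 of the 121 bases read, so a match in the rest of them would not be seen. Of 32619 RefSeq promoter stretches (GRCm38.p6), which are longer than the windows, 0 held a bait-like match and 15 (0.046%) the repeat. A match describes letters and does not show that the place was cut.

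The sequences of 4 of the 5 bait-like places, read from the prey reads on the minus strand of mm9, are shown against the bait's 20 bases because these windows held many NPC and few ESC junctions. The capitals mark the stretch that matches and its NGG.

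site on chromosome 2, chr2:161808219-161808261: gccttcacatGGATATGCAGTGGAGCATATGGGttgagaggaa
site on chromosome 11, chr11:113036219-113036260: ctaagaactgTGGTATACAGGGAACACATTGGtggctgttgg
site on chromosome 14, chr14:70753140-70753181: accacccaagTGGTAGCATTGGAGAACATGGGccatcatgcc
site on chromosome 1, chr1:109162734-109162776: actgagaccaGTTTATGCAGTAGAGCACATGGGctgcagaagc

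With positions counted from 1 at the 5′ end of the bait's 20 bases, the site on chromosome 2 carries T1G, G3A and C18T. The site on chromosome 1 carries T1G, G2T, G3T and G12A. On chromosome 11 base 11 is left out, beside G7A and G15A. On chromosome 14 base 6 is left out, beside G10T and C16A.

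These windows were nearly confined to NPC among the APH experiments. The window on chromosome 2 held 77 NPC and 0 ESC junctions. The one on chromosome 11 held 65 and 1, on chromosome 14 49 and 2, and on chromosome 1 49 and 0. The fifth, on chromosome 18, is not shown and held 84 and 5. Over the 5 windows NPC had 324 junctions, 0.31% to 0.94% of distant junctions per experiment, and ESC 8, 0% to 0.22%. The experiments did not overlap. Windows were picked on their total count, to which NPC gave most, so this is a description with no test.

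They were also there without APH. With DMSO the NPC pools held 200 and 250 such junctions, 1.37% and 1.18% of their distant junctions, against 0.70% and 0.48% with APH. The ESC pools with DMSO held 7 and 3, which is 0.15% and 0.05%. The other 2 baits together had 2 junctions there.

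**Figure D5:**
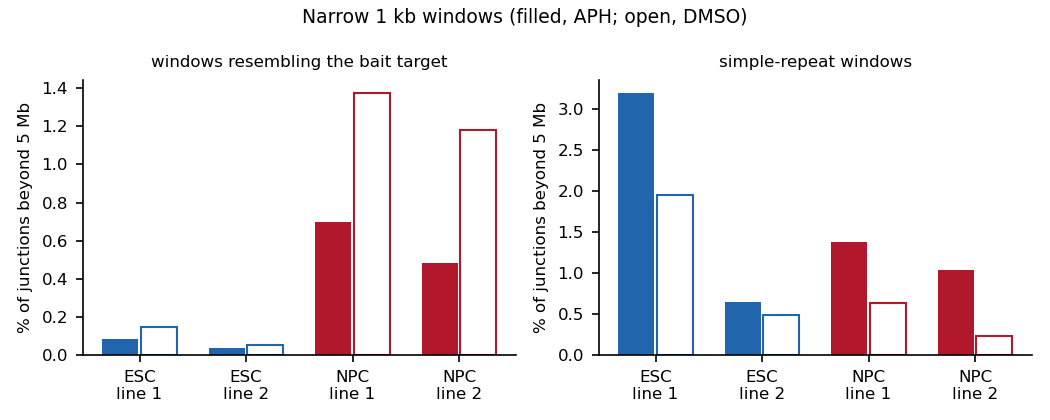
Percent of distant junctions (vertical axes) in the 5 windows that resemble the bait's 20 bases and in the 19 repeat windows, for the pool of each cell type and line; filled bars APH, open bars DMSO, bars from 0, no error since each is 1 pool. Windows resembling the bait hold 0.70% and 0.48% in the NPC pools and 0.08% and 0.04% in the ESC pools with APH.

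The bait-like windows touch some of the bins above. Of the 155 NPC junctions in chr2:161500001-162000000, where Ptprt, a receptor tyrosine phosphatase of synapses, is the longest gene, 77 lay in the window and 78 outside it, against 2 ESC junctions outside it. In chr11:113000001-113500000 the NPC split was 65 inside and 57 outside, against 4 ESC junctions outside. In chr1:109000001-109500000 it was 49 and 28, against 2.

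The repeat windows held 660 NPC junctions (1.24% of distant junctions) and 250 ESC junctions (1.71%), and the lines went opposite ways. In line 1 the NPC pool held 1.38% and the ESC pool 3.20%, and in line 2 they held 1.04% and 0.64%. The busiest, on chromosomes 14 and 11, are printed because they rank among the 3 busiest windows of a cell type; the capitals mark the first copies of the repeat.

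window on chromosome 14, chr14:28341491-28341550, plus strand: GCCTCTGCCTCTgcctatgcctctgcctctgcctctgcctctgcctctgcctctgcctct
window on chromosome 11, chr11:58442184-58442243, plus strand: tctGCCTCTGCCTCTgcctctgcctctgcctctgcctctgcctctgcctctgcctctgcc

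The former held 80 NPC and 33 ESC junctions, the latter 63 and 35. In ESC the repeat share split by instrument, as did the blunt share and some of the shares by place. The repeat share was 3.04% to 7.61% in the 5 experiments read on the instrument shared with NPC and 0.28% to 0.97% in the other 5. In NPC it was 0.18% to 2.72%. The window at chr3:46254001-46255000, of neither kind and the busiest in ESC, held 9 NPC and 36 ESC junctions. Repeats like these align to many places, and how the deposited reads were chosen among such places is not given in the sources used here.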

How the data were processed

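Each row of the deposited tables is a junction, with where its prey aligned and where bait and prey alignments end in the read. They give raw junction counts with no normalization by the authors, per the file headers. Reads were aligned with Bowtie2 to mm9, per the submitters' processing notes; versions, filters and the tool that called junctions were not given in the sources used here. A read name repeated within a table counted once, and 67 junctions outside chromosomes 1 to 19 and X were left out of bins.

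Junctions beyond 5 Mb of the break were counted in 500 kb bins. They were tested with edgeR 4.0.16 (R 4.3.3; filterByExpr with a minimum count of 5, TMM, quasi-likelihood test, line as block, Benjamini-Hochberg). Shares were tested per experiment by exact permutation of cell type within line (scipy 1.17.1). DESeq2 1.42.0 was an alternative. The fits were tested on simulated counts without TMM. The scaling of the fits that used TMM was therefore not covered. Experiment letters shared by NPC and ESC of a line were not treated as pairs. Their deviations correlated at -0.033 to 0.028, which with such low counts cannot decide whether the letters pair.

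Members, loci and lists were chosen with earlier results of these data known. Regions were named by a rule: up to 20 higher and 10 lower bins by smallest adjusted p with the same sign in both lines, all called bins on chromosome 7, and the 3 busiest 1 kb windows per cell type. In the fit of 682 bins, the bins described were picked among the called ones after their values were seen. Gene starts were placed in mm9 by RefSeq promoter sequences matching prey reads over at least 45 bases with at most 1 mismatch, which placed 1312 starts in RefSeq order; no coordinate was converted. Of the 5 different windows the rule names, those on chromosomes 18 and 3 are not shown by sequence. Depth per experiment was 452 to 11482 junctions beyond 5 Mb, so at the least 1 junction is 0.22% of an experiment.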

Additional observations from a re-analysis of the deposited data

Results flagged for a closer look

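Values that stood far from the others of their group of 4 or 6 experiments came from 10 of 96 groups examined, where chance gives about 1 in 20. Experiment A of ESC line 2 gave 5 of them. Its share from 10 kb to 5 Mb was 4.78%, with the next experiment at 7.32%. Its share on other chromosomes was 10.6%, with the next at 8.81%. Its junctions had 45.7% insertions (next 28.9%), 47.5% microhomology (next 62.5%) and a mean microhomology of 3.84 bases (next 3.48).

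Experiment H of ESC line 1, which was read on another instrument than the rest of its line, gave 2: 7.78% from 10 kb to 5 Mb (next 4.81%) and 3.36% on chromosome 7 beyond 5 Mb (next 2.08%). Experiment C of NPC line 1 gave 2: 9.34% from 10 kb to 5 Mb (next 13.8%) and 8.97% blunt junctions (next 7.36%). Experiment B of NPC line 2 had 46.1% plus-strand prey (next 44.6%).

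The NPC minus ESC difference in the bin chr7:106500001-107000000 differed between the lines by -2.63 on the log2 scale (line 2 minus line 1, edgeR interaction term, adjusted p = 3.9e-05). It was the only 1 of the 19 bins to do so; in the fit of 682 bins 0 passed, with 80 at unadjusted p under 0.05.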

How the results depend on the processing

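Against 8 higher and 6 lower bins, the counts were 5 and 4 with 250 kb bins, 15 and 12 with 1 Mb bins, 1123 and 4 with no filter beyond 1 junction (median log2 fold change 1.35), 5 and 4 when repeats of a position and strand counted once, 30 and 2 with all 24 pools, 7 and 0 with line 1 alone, 10 and 8 with line 2 alone, and 6 and 5 with line and letter as a replicate block. The 4 pools alone gave 0 and 0 of 654 (edgeR; 99 at unadjusted p under 0.05). With chromosome 7 left out 1 bin remained, which scaling sets to no change, so the count of 0 and 0 is void. Total junctions beyond 5 Mb as the library, DESeq2 and no line block each gave 8 and 6; none of the 19 bins was narrow, so leaving out narrow bins removed nothing. Leaving out 1 experiment gave 6 to 10 higher and 6 to 8 lower. Alternatives added after seeing the data gave 73 and 46 (bins with 20 junctions), 199 and 11 (the same with TMM), 14 and 0 (TMM factors from all bins), 14 and 0 (all junctions as library), 3 and 4 (line 1 on 1 instrument) and 10 and 8 (8 letters of ESC line 1). The interaction with bait gave 1 with lettered experiments, 4 with those of line 1 alone (added after seeing the data) and 0 otherwise; with pools of 1 line it has no residual degrees of freedom, and for line 2 no lettered NPC experiments of the chromosome 15 bait were used, so neither was fitted.

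Lower bins that turned positive did so mostly with scaling. Gene names here only label a bin by the longest gene between the placed starts around it. The Snrpn bin chr7:69000001-69500000 gave 0.22 with no filter, 0.22 with TMM factors from all bins and 0.21 with all junctions as the library, also in the fit of 682 bins (0.21). The Nell1 bin chr7:57500001-58000000 gave 0.31, 0.29 and 0.19, the Gabrg3 bin chr7:64500001-65000000 0.56, 0.57 and 0.48, and the Igf1r bin chr7:75000001-75500000 0.85, 0.86 and 0.82, and 0.063 in the fit of bins with 20 junctions under TMM. With line 1 alone the Gabrg3 bin gave 0.49, the Igf1r bin 0.081 and the Uvrag bin 0.18, which gave 0.035 for line 1 on 1 instrument. Those fits took TMM factors from their own bins. In the line 1 pools, the NPC share of distant junctions was below the ESC share in each of these bins. The cause was not tested.

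Against 73 and 46 in the fit of bins with 20 junctions, the counts were 199 and 11 with TMM, 418 and 1 with all junctions as the library, 44 and 17 with DESeq2, 58 and 26 with line and letter as a replicate block, 21 and 10 with line 1 alone, 44 and 23 with line 2 alone, 7 and 8 for line 1 on 1 instrument, 4 and 1 with the 4 pools alone, 68 and 29 without narrow bins and 55 and 22 without chromosome 7; leaving out 1 experiment gave 52 to 77 and 32 to 46. Lines alone and fewer bins hold fewer tests.

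Shares by place kept direction and call in every alternative but 1, junctions within 10 kb left out of the total, which gave -3.19 points for 10 kb to 5 Mb and 1.65 for other chromosomes. Leaving out 1 experiment gave -32.8 to -31.03, 9.16 to 10.1, 5.21 to 5.65 and 16.3 to 17.1 points, in the order near to far. Microhomology over all junctions gave 0.11 bases, and blunt junctions -1.37 points with line 2 alone (exact permutation test, adjusted p = 0.0571); other alternatives kept the calls of junction form, with 1 experiment left out giving 11.7 to 14.5, -12.6 to -9.74 and -2.06 to -1.65 points and -0.58 to -0.47 bases for microhomology, insertions, blunt joins and length. The plus-strand share lost its call with line 1 alone (-3.47), a 10 Mb zone (-3.16), 8 letters of ESC line 1 (-3.46) and line 1 on 1 instrument (-2.73), and ran from -4.68 to -3.04 with 1 experiment left out; the side of the break ran from -23.0 to -21.1. Low counts limit ESC: a bin at 0 there may hold up to 0.0204% of its distant junctions (3 counts).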

Other observations

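Among junctions off chromosome 7, no chromosome separated the cell types. On each of the 19 chromosomes besides chromosome 7, the NPC and ESC experiments overlapped, read as a percent of the junctions on those chromosomes. Chromosome 1, for one, held 7.03% ± 0.40 (SD, n = 8) in NPC and 6.13% ± 1.47 (SD, n = 10) in ESC, and chromosome 16 4.19% ± 0.44 and 3.39% ± 1.54.

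Junctions of the chromosome 7 bait within 10 kb of the chromosome 12 bait's break numbered 23 in ESC line 2 with APH and 26 with DMSO, and 0 to 2 in every other pool of the chromosome 7 bait. Within 10 kb of the chromosome 15 bait's break there were 0 in all 8 pools.

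Of the 9 narrow windows with no bait-like match or repeat in the bases read, chr4:5697001-5698000 (31 NPC and 0 ESC junctions with APH) and chr7:17329001-17330000 (22 and 0) held none in ESC. With DMSO the NPC pools held 10 and 14 in the former and 10 and 21 in the latter, and the ESC pools 0. The window chr7:137735001-137736000 held 22 of its 24 junctions in ESC line 2 and 119 with the other baits.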
